A study of Mus musculus with 56 samples.

Results

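The enzymes that make, interconvert and break down polyamines, with the proteins that govern the first step, were followed through 8 genes chosen by name: Odc1, Amd1, Srm, Sms, Smox, Sat1, Azin1 and Oaz1. They were chosen with earlier results of these data known. All 8 were found among the 15539 genes of the count table, and all 8 passed the filter on low counts that left 14321 genes for testing. The table holds 56 libraries, 1 for each mouse, from gastrocnemius, a mixed calf muscle. Mice were C57Bl/6, were fed chow 5015 and fell into 8 groups of 7: females and males, of 2 genotypes, on 2 kinds of wheel. Controls carried floxed alleles of Elavl1, the gene of the RNA-binding protein HuR, and were littermates of the knockout mice per the study's methods. Skeletal muscle HuR knockout mice (HuRm-/-) carried the same floxed alleles and Cre recombinase under the Mlc1f promoter, so the deletion was directed to muscle fibres and not to the other cells of the tissue. Wheels were locked (baseline) or free to turn between weeks 10 and 20 of age, and the labels give the age of all groups as 5 months. Levels are given as CPM, counts scaled to a common library total and adjusted by TMM, a between-library normalization, and every fold change is on the log2 scale, with limma's standard error (SE) and an adjusted p-value.

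Polyamines are small cationic molecules that bind nucleic acids and are needed for translation and growth. Ornithine decarboxylase (Odc1) makes putrescine, S-adenosylmethionine decarboxylase (Amd1) makes the aminopropyl donor, and spermidine synthase (Srm) and spermine synthase (Sms) use that donor to make spermidine and spermine in turn. Spermine oxidase (Smox) turns spermine back into spermidine, and spermidine/spermine acetyltransferase (Sat1) marks polyamines for breakdown or export. Antizyme 1 (Oaz1) binds ornithine decarboxylase and sends it to the proteasome, and antizyme inhibitor 1 (Azin1) binds antizyme in its place. In skeletal muscle Odc1, Amd1 and Smox are known as androgen-responsive transcripts.

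In GRCm38 coordinates with GENCODE annotation, all 8 are protein-coding genes. Odc1 (ENSMUSG00000011179) lies at chr12:17544794-17551505 on the plus strand, Amd1 (ENSMUSG00000075232) at chr10:40287458-40302186 on the minus strand and Smox (ENSMUSG00000027333) at chr2:131491496-131525922 on the plus strand. Srm (ENSMUSG00000006442) lies at chr4:148591503-148594993 on the plus strand, Azin1 (ENSMUSG00000037458) at chr15:38487427-38519266 on the minus strand and Oaz1 (ENSMUSG00000035242) at chr10:80826656-80829290 on the plus strand. Sms (ENSMUSG00000071708, chrX:157443855-157492287) and Sat1 (ENSMUSG00000025283, chrX:155213132-155216449) both lie on the minus strand of the X chromosome. Upstream sequence of the 3 members with the widest sex difference is shown because they moved together across mice. Each line gives the 250 bases before a RefSeq transcription start (GRCm38.p6), written 5′ to 3′ on the gene's strand. Capitals mark the GC box GGGCGG and the TATA letters TATAA, each on either strand.
Amd1, chr10:40302189-40302438, minus strand: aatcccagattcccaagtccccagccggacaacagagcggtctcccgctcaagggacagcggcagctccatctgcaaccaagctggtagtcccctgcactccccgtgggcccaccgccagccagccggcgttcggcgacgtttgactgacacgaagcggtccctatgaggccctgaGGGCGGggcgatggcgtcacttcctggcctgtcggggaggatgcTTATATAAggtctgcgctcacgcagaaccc
Odc1, chr12:17544623-17544872, plus strand: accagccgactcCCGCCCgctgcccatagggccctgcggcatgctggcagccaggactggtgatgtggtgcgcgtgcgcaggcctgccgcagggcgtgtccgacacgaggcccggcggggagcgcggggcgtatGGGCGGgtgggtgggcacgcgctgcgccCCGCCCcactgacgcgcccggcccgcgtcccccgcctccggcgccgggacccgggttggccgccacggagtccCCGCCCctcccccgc
Smox, chr2:131491612-131491861, plus strand: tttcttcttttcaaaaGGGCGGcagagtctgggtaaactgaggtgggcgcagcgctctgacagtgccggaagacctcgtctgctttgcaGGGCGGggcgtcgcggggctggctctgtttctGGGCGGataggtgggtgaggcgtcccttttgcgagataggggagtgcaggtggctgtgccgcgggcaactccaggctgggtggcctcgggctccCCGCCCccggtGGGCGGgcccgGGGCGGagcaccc
The RefSeq starts of Odc1 and Smox lie downstream of the GENCODE gene starts given above, so the Smox window and the end of the Odc1 window fall within the annotated genes. The Amd1 window held 1 GC box and 2 overlapping TATA matches near its end, the Odc1 window 4 GC boxes and the Smox window 6. Of 32851 windows of 250 bases before RefSeq starts, 32.7% held a GC box and 22.8% held TATAA. The androgen receptor half-site AGAACA, also searched on either strand, was in none of these 3 windows and in 16.1% of all windows. RefSeq windows were found for 6 of the 8 members, and matches are letters in the window only, with no binding measured.

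Library totals ranged from 6639782 to 21633091 counts, and Xist with 4 Y-linked genes separated all 28 females from all 28 males. Elavl1 was not lower in the mice labelled HuRm-/- on average: its median was 44.5 CPM in female and 54.0 CPM in male locked-wheel controls against 47.9 and 50.5 CPM in the mice labelled HuRm-/-, and 51.5 and 54.4 CPM in running controls against 52.8 and 61.3 CPM. Its average difference was 0.13 ± 0.06 (adjusted p = 0.150), and in running males it was higher in the labelled mice by 0.44 ± 0.11 (adjusted p = 0.0242). The labels describe a 3′ tag library, and where those tags lie relative to the deleted part of Elavl1 is not given in the sources used here, so this gene may not be able to check the labels. The 28 labelled mice were split on Myl1, a fast myosin light chain and the gene whose promoter drives Cre. The split was made at the widest gap in each group, a rule that yields a low and a high set in any group. On a log2 scale the widest gap in each labelled group left 17 mice between 2320 and 6528 CPM and 11 mice between 7354 and 13731 CPM, while the 4 control groups ranged from 7507 to 14049 CPM. Results that involve genotype are therefore given for mice "labelled HuRm-/-", and the main ones are given again without those 11, which also leaves fewer mice. In the sex comparisons of labelled mice the SE was then smaller for Amd1 (0.23 to 0.20 on locked wheels) and Smox (0.28 to 0.23). It was larger for the other members, such as Odc1 (0.26 to 0.32). Muscle markers (Ckm, Acta1 and 6 others) were abundant in every library, whereas summed liver transcripts varied from 3.09 to 3432 CPM between mice, with 10 mice over 500 CPM and 10 of the 15 liver markers at 0 in at least 1 mouse.

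Transcripts for both decarboxylases and for spermine oxidase were lower in female than in male muscle in each of the 4 pairings of genotype and wheel. Averaged over the pairings, Amd1 was 7.25-fold lower in females, Smox 4.53-fold lower and Odc1 3.39-fold lower. Sms, Oaz1 and Azin1 were lower by smaller amounts, Sat1 was higher, and Srm did not pass the test. The 4 pairings share no mice, and the average uses the same mice as the pairings. In locked-wheel controls 1 member rose and 5 fell in females, where 21.5% of all genes tested were called at an adjusted p of 0.05 (10.3% higher and 11.2% lower). In running controls the counts were 1 and 3, with 7.65% of all genes called (3.09% higher, 4.57% lower). They were 0 and 5 in locked-wheel labelled HuRm-/- mice, with 19.3% of all genes called (9.08% higher, 10.2% lower), and 0 and 5 in running labelled mice, with 5.57% called (2.3% higher, 3.26% lower). In the average they were 1 and 6, with 33% of all genes called (15.8% higher, 17.1% lower). The median fold change of the 8 members was -0.54, -0.32, -0.40 and -0.52 in the 4 pairings and -0.42 in the average, against medians of 0.01, -0.00, -0.02, 0.01 and 0.00 over all genes. Nothing in the labels says how the mice were allotted to sequencing runs, so whether runs add to a group difference cannot be checked. The p-values weigh each difference against the spread between libraries within groups.

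**Figure D1:**
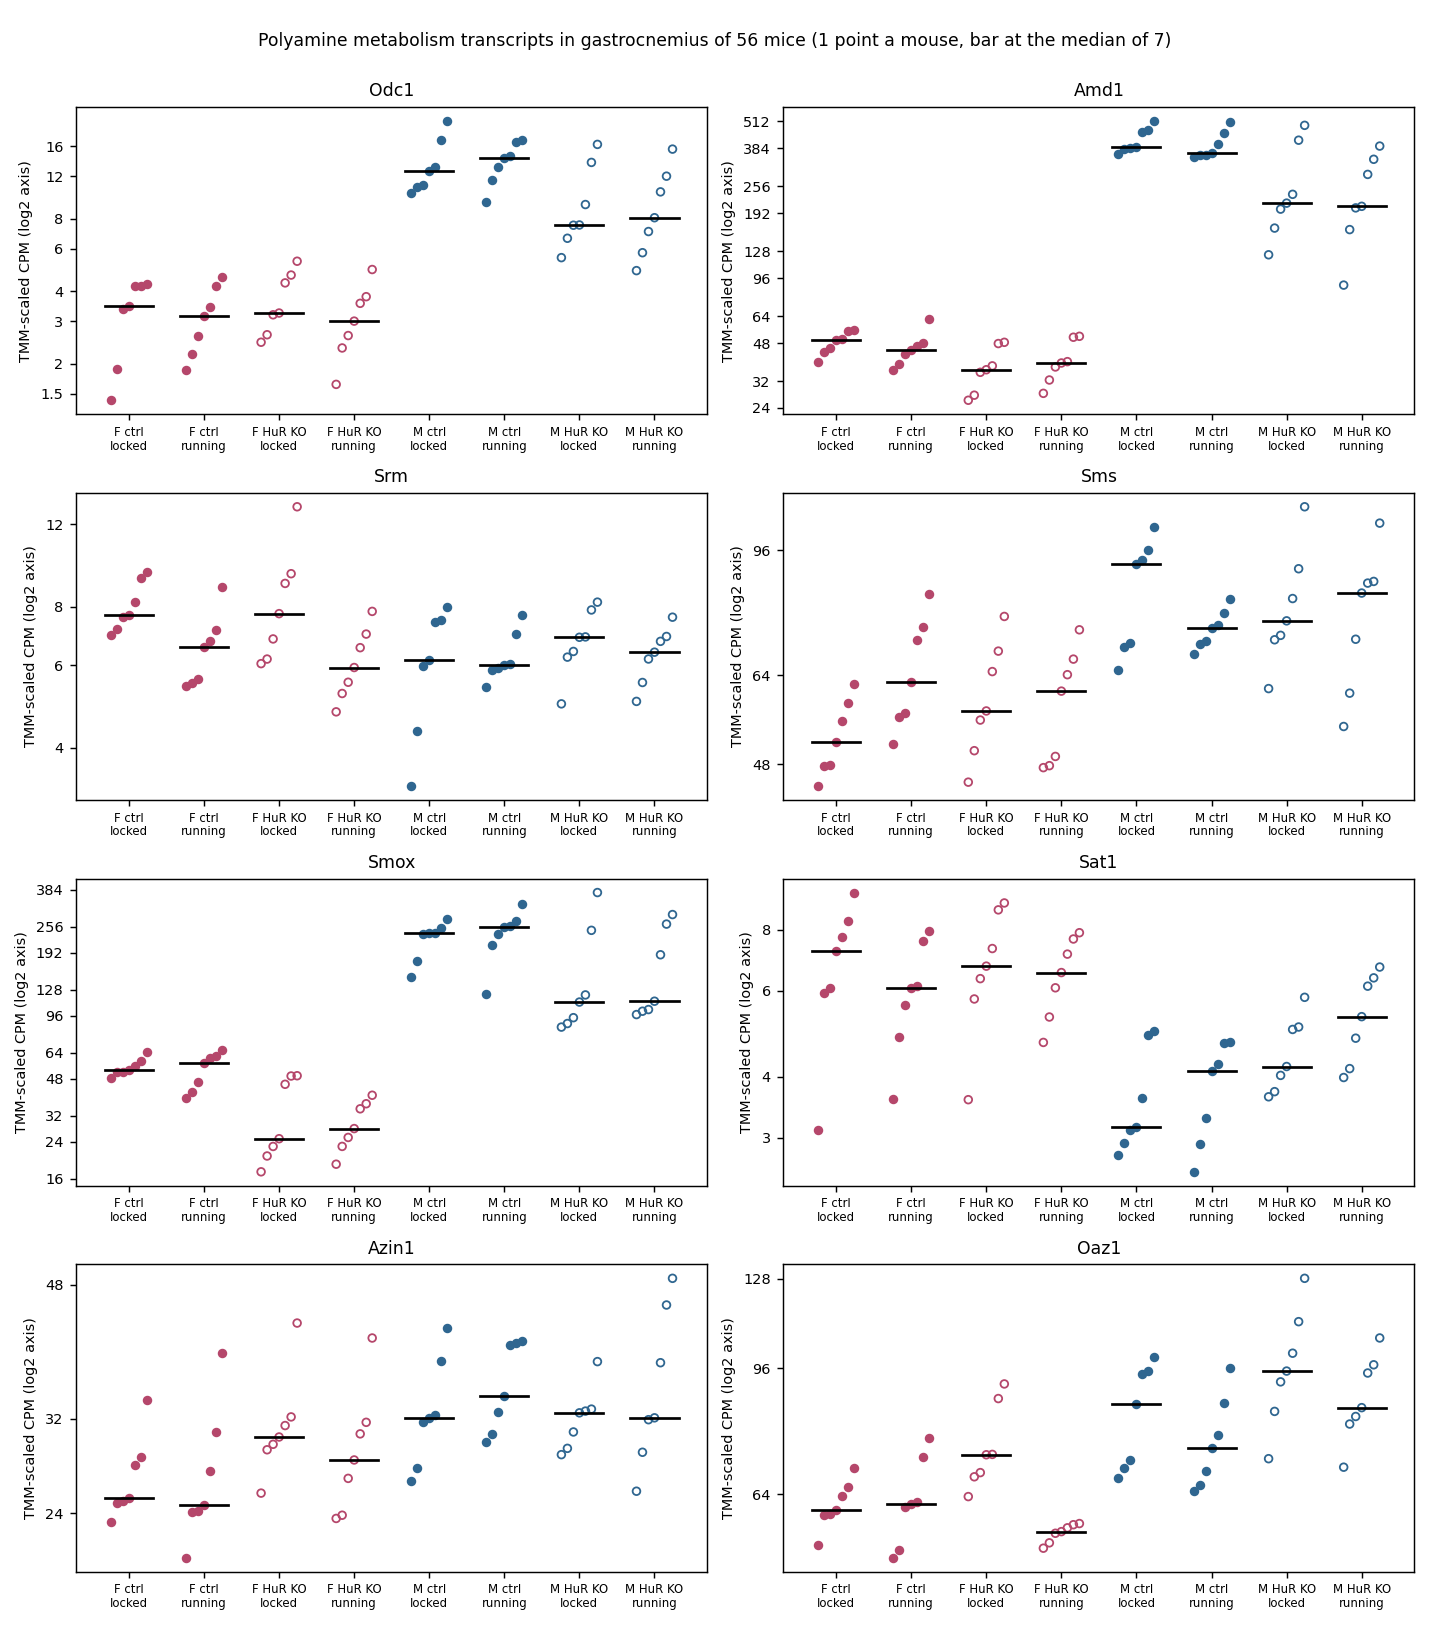
TMM-scaled CPM on a log2 axis for the 8 genes in each of 56 mice, with 1 point per mouse, filled for controls and open for mice labelled HuR knockout, and a bar at the median of 7. For Amd1 and Smox all 28 females lie below all 28 males, and Srm and Azin1 overlap in every pairing.

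Amd1 makes decarboxylated S-adenosylmethionine, the aminopropyl donor for both synthases. In locked-wheel controls it ranged from 39.2 to 55.1 CPM in females (median 49.5) and from 360.1 to 514 CPM in males (median 387). In running controls the ranges were 36.0 to 62.4 CPM (median 44.8) and 350.1 to 509 CPM (median 364). Neither pair of groups came near overlapping, and the female-minus-male fold change was -3.12 ± 0.22 in both (adjusted p = 8.28e-17 and 2.11e-16). Labelled HuRm-/- females on locked wheels held 26.1 to 48.4 CPM (median 36.1) and labelled males 123 to 491 CPM (median 214). On running wheels females held 28.1 to 51.6 CPM (median 38.8) and males 89.1 to 393 CPM (median 207). The labelled males were spread over a wider range than the control males, and their lowest values were still above every female. Fold changes were -2.70 ± 0.23 (adjusted p = 1.36e-13) and -2.49 ± 0.22 (adjusted p = 1.28e-12), and -2.55 and -2.21 without the 11 mice. In the average comparison, at -2.86 ± 0.11, Amd1 ranked 6 of 14321 genes by p-value.

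Reads of Amd1 may be hard to tell from those of Amd2, a copy of the gene elsewhere on chromosome 10. The Amd2 transcript covered 99.81% of the Amd1 transcript at 99.56% identity, and nearly all of the last 300 bases, where a 3′ tag would fall, matched at 100% identity. Amd2 took a median of 6.18% of the summed Amd1 and Amd2 counts in females (1.24 to 15.1%) and 7.53% in males (4.44 to 13.1%). Its own sex difference was of the same order, at -3.17 ± 0.21 in the average (adjusted p = 7.05e-19). Both rows moved the same way, and how many of these reads belong to each copy is uncertain.

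Odc1, the first enzyme of the pathway, followed the same order as Amd1 at a lower count. In locked-wheel controls it ranged from 1.41 to 4.27 CPM in females (median 3.48) and from 10.3 to 20.4 CPM in males (median 12.6). In running controls the ranges were 1.88 to 4.61 CPM (median 3.16) and 9.39 to 16.9 CPM (median 14.3). The groups did not overlap, and Odc1 fell in females by 2.08 ± 0.28 (adjusted p = 1.04e-07) and 2.12 ± 0.29 (adjusted p = 1.87e-07). Among labelled HuRm-/- mice the ranges came closer, at 2.46 to 5.33 CPM in females (median 3.25) against 5.52 to 16.3 CPM in males (median 7.54) on locked wheels. They met on running wheels, at 1.64 to 4.92 CPM (median 3.01) against 4.87 to 15.6 CPM (median 8.08). Fold changes were -1.31 ± 0.26 (adjusted p = 0.000198) and -1.53 ± 0.27 (adjusted p = 7.12e-05), and -1.03 and -1.23 without the 11 mice. Of 19 genes with sequence like the Odc1 transcript 1, AW146154, was in the table, and reads shared with such copies could have been split or dropped in counting.

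Smox, which oxidises spermine and releases hydrogen peroxide, ranged in locked-wheel controls from 48.6 to 64.3 CPM in females (median 52.7) and from 146 to 279.6 CPM in males (median 237). In running controls it ranged from 38.6 to 65.7 CPM (median 57.0) and from 122 to 329.7 CPM (median 256). Groups did not overlap in either pairing. Fold changes were -2.01 ± 0.26 (adjusted p = 4.26e-08) and -2.14 ± 0.26 (adjusted p = 1.46e-08). In labelled HuRm-/- mice Smox held 17.2 to 49.6 CPM in locked-wheel females (median 24.8) against 84.7 to 372 CPM in males (median 112). On running wheels it held 18.7 to 40.0 CPM in females (median 27.7) against 97.2 to 292 CPM in males (median 113). Both sexes sat lower than their controls by median, and the sexes stayed apart, with fold changes of -2.16 ± 0.28 (adjusted p = 5.42e-08) and -2.40 ± 0.27 (adjusted p = 3.60e-09), or -2.23 and -2.14 without the 11 mice.

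**Figure D2:**
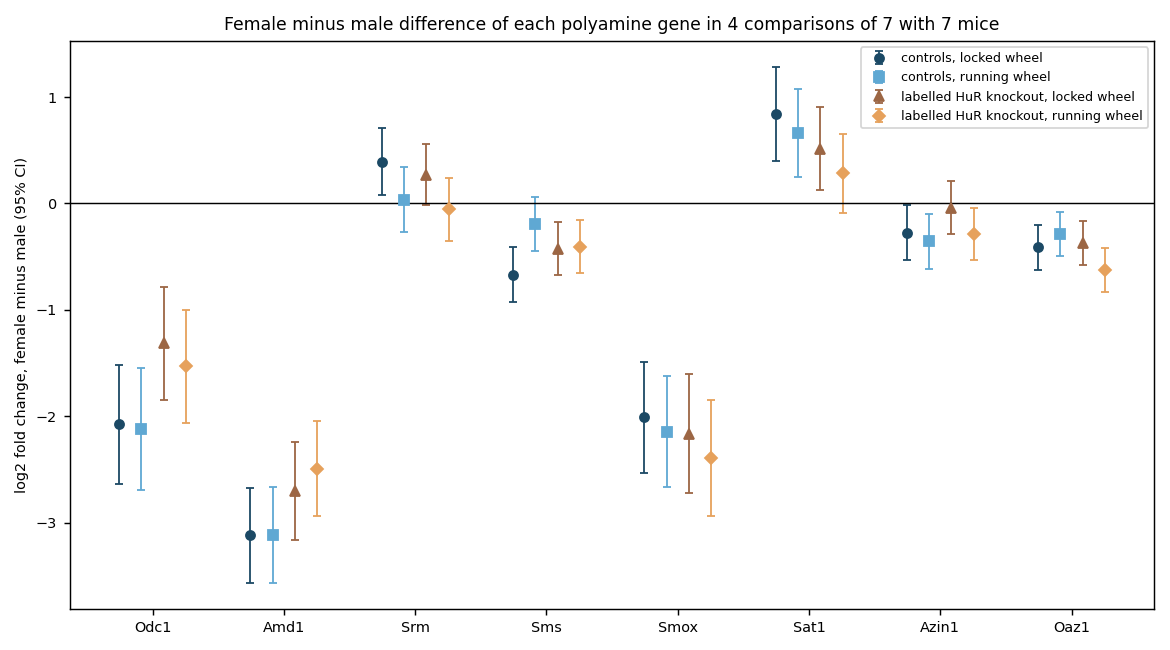
Female-minus-male log2 fold change of each gene, with its 95% confidence interval, in the 4 comparisons of 7 with 7 mice. Odc1, Amd1 and Smox lie below zero in all 4 comparisons, and Sat1 lies above zero in all 4, with an interval that includes zero in running labelled mice.

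Sat1, the acetyltransferase that starts polyamine breakdown and export, went the other way at a low level. In locked-wheel controls it ranged from 3.11 to 9.55 CPM in females (median 7.24) and from 2.76 to 4.97 CPM in males (median 3.15), with 6 of 7 females above every male. In running controls it ranged from 3.61 to 7.96 CPM (median 6.10) and from 2.55 to 4.71 CPM (median 4.11), again with 6 of 7 females above every male. It rose in females by 0.84 ± 0.22 (adjusted p = 0.00389) and 0.66 ± 0.21 (adjusted p = 0.0346). The ranges overlapped more in labelled HuRm-/- mice, at 3.59 to 9.09 CPM in females against 3.64 to 5.82 CPM in males on locked wheels. They were 4.70 to 7.90 against 3.98 to 6.71 CPM on running wheels. Differences there were 0.51 ± 0.20 (adjusted p = 0.0537) and 0.28 ± 0.18 (adjusted p = 0.444), or 0.63 and 0.16 without the 11 mice, again not called. The first was called by edgeR and DESeq2. The interaction of sex with genotype was -0.35 ± 0.20 (adjusted p = 0.709), so a change in the size of the sex difference was not detected. In the average Sat1 was 1.49-fold higher in females (0.58 ± 0.10, adjusted p = 6.55e-06). Sat1 and Sms are X-linked, and of 452 X-linked genes tested 24.1% were higher and 9.73% lower in females in the average.

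Sms and Srm, the 2 aminopropyl transferases, had smaller sex differences than Amd1. Sms ranged from 44.8 to 62.2 CPM in locked-wheel female controls (median 51.6) and from 65.2 to 103 CPM in males (median 91.6), without overlap, and fell in females by 0.67 ± 0.13 on the log2 scale (adjusted p = 8.41e-05). In running controls the female range, 51.2 to 83.3 CPM (median 62.8), enclosed the male range, 68.7 to 81.9 CPM (median 74.6), and the difference was -0.20 ± 0.13 (adjusted p = 0.396). In labelled HuRm-/- mice Sms fell in females by 0.42 ± 0.13 (adjusted p = 0.0125) on locked wheels and by 0.41 ± 0.13 (adjusted p = 0.0409) on running wheels. Without the 11 mice the differences were about as large, at -0.41 ± 0.15 and -0.46 ± 0.15, and neither passed the test (adjusted p = 0.0628 and 0.0852). Srm, which makes spermidine, held between 3.32 and 13.1 CPM over all mice and passed the test in no sex comparison over the 56 mice. Its widest difference was 0.39 ± 0.16 in locked-wheel controls (95% confidence interval 0.08 to 0.70, adjusted p = 0.0648), which was called without the 11 mice at the same size (adjusted p = 0.0363). Its average difference was 0.16 ± 0.08 (0.01 to 0.31, adjusted p = 0.0973).

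Of the regulators of ornithine decarboxylase, Oaz1 was lower in females. It ranged from 54.4 to 69.5 CPM in locked-wheel female controls (median 60.7) and from 67.5 to 99.6 CPM in males (median 85.6), with 6 of 7 females below every male. It fell there by 0.41 ± 0.11 (adjusted p = 0.00283). In running controls the difference was -0.29 ± 0.10 (adjusted p = 0.0802). Oaz1 in labelled HuRm-/- mice fell by 0.37 ± 0.10 on locked wheels (adjusted p = 0.00594). It fell by 0.63 ± 0.10 on running wheels (adjusted p = 2.14e-05), where the 7 females, at 53.8 to 58.2 CPM, lay in a narrow band below the 7 males, at 69.8 to 106 CPM. Without the 11 mice the differences were -0.35 ± 0.13, no longer called (adjusted p = 0.0661), and -0.65 ± 0.14, still called (adjusted p = 0.00285). Azin1 had group medians of 24.6 to 34.3 CPM and passed the test in no single pairing. Its differences ran from -0.36 to -0.04, and the average, -0.24 ± 0.06, was called (adjusted p = 0.00205), also without the 11 mice (-0.23, adjusted p = 0.0139).

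The balance of Odc1 to Oaz1 transcripts was taken as the ratio of their counts within each mouse, which does not depend on scaling between libraries. Neither protein was measured, so the ratio does not give the balance of enzyme to antizyme. In locked-wheel controls females held 2.16 to 6.93 Odc1 counts for every 100 Oaz1 counts (median 6.07) and males 11.98 to 29.3 (median 15.2). In running controls females held 3.02 to 7.86 (median 5.0) and males 13.5 to 22.5 (median 18.8). Control females and males did not overlap. In labelled HuRm-/- mice the values were 2.89 to 7.88 in females (median 4.66) and 5.18 to 16.2 in males (median 9.03) on locked wheels. On running wheels they were 2.89 to 8.46 (median 5.18) and 5.02 to 14.7 (median 10.1). The sexes overlapped in both. The female-minus-male difference in the log2 ratio was -1.71 and -1.89 in controls, each with p = 0.000583 (exact permutation test, two-sided, n = 7 and 7, the smallest p this design allows) and 0.00117 after adjustment over the 4 comparisons. It was -0.94 and -0.89 in labelled mice, with exact permutation p = 0.00932 and 0.0105 (n = 7 and 7), each 0.0105 after adjustment. Without the 11 mice it was -0.70 on locked wheels (4 females, 5 males, adjusted exact permutation p = 0.169) and -0.57 on running wheels (4 and 4, adjusted exact permutation p = 0.257), and neither passed the test.

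**Figure D3:**
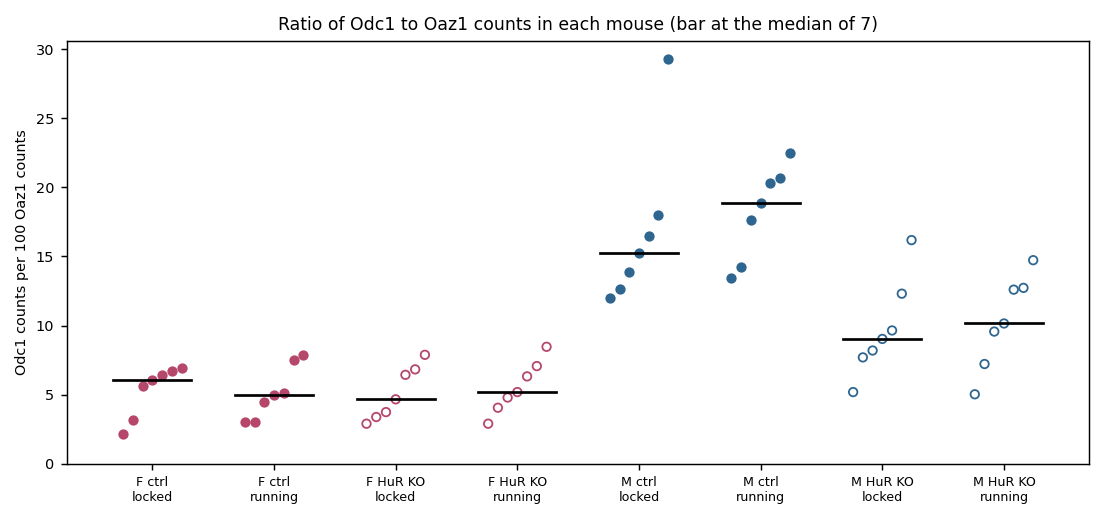
Odc1 counts per 100 Oaz1 counts in each of 56 mice, with a bar at the median of 7. Control females lie between 2.16 and 7.86 and control males between 11.98 and 29.3, while mice labelled HuR knockout overlap between the sexes.

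Read against the whole table, non-overlap of the sexes was uncommon. In the 4 pairings 4, 3, 3 and 3 of the 8 members did not overlap, against 6.98%, 2.97%, 3.21% and 1.83% of all genes tested. The members were chosen with earlier results of these data known, so these shares describe the members and do not test them as a set. Without the 11 mice the last 2 pairings again had 3 each, against 12.1% and 9.25% of all genes among the fewer mice. Odc1 separated the sexes in 3 pairings, Sms in locked-wheel controls and Oaz1 in running labelled mice, whereas Amd1 and Smox did so in all 4. Over all 28 females and 28 males, 25 genes (0.175% of all tested) were lower in every female than in every male, and Amd1, Amd2 and Smox were among them, as were 5 Y-linked genes. For Odc1, 2 females exceeded the lowest male and 1 male fell below the highest female.

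Female and male muscle also differed in markers of fibre type and of other cells, and in bulk tissue fewer cells of a type and less RNA per cell cannot be told apart. All 6 slow-fibre markers (Myh7, Tnnt1 and 4 others) were called higher in females in the average, with a median of 0.65. Their summed level was 989 to 1460 CPM in female and 764 to 1052 CPM in male locked-wheel controls. It was 1158 to 1762 and 696 to 1290 CPM in running controls, 1418 to 2131 and 787 to 2020 CPM in locked-wheel labelled mice and 1488 to 2002 and 871 to 1847 CPM in running labelled mice. Of the 8 general and fast muscle markers 4 were lower in females, 7 of 10 adipocyte markers were higher and 1 lower, and 5 of 8 leukocyte and 5 of 5 erythroid markers were higher, with none of these at 0 in any mouse. In the same order of groups, summed adipocyte markers were 662 to 967 and 535 to 755 CPM, 567 to 764 and 585 to 800.1 CPM, 524 to 1045 and 436 to 699 CPM, and 701 to 1023 and 606 to 730.3 CPM. Summed leukocyte markers were 96.5 to 227 and 45.7 to 81.3 CPM, 61.3 to 128 and 51.5 to 119.8 CPM, 87.9 to 133 and 41.5 to 120.1 CPM, and 79.6 to 127 and 61.1 to 173 CPM. Of these 8 pairs of ranges only leukocyte markers in locked-wheel controls did not overlap between the sexes. Summed erythroid markers were 1754 to 6392 and 746 to 1944 CPM, 1052 to 3028 and 1188 to 2280 CPM, 1380 to 4199 and 1024 to 1809.5 CPM, and 1101 to 3629 and 1095 to 2104 CPM. Members called in locked-wheel controls went from 6 to 3 with liver and adipocyte, or with leukocyte and erythroid, markers as covariates. Beyond such fits the part of these cells in the differences was not tested. An alternative chosen after the data were seen took the mean log2 CPM of the slow markers, and of the general and fast markers, as covariates. In it the average female-minus-male difference was -2.30 ± 0.14 for Amd1 (adjusted p = 1.85e-19), -1.48 ± 0.17 for Smox (adjusted p = 4.03e-09) and -1.31 ± 0.18 for Odc1 (adjusted p = 3.12e-07). Sms (-0.22, adjusted p = 0.0916), Oaz1 (-0.17, adjusted p = 0.0954), Azin1 (-0.23, adjusted p = 0.143) and Sat1 (0.36, adjusted p = 0.131) no longer passed the test in that fit. The same fit ended the call for Odc1 in locked-wheel labelled mice (-0.78 ± 0.29, adjusted p = 0.0805) and kept the other calls for Amd1, Smox and Odc1.

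The genotype comparison asks what differs between mice labelled HuRm-/- and controls. Averaged over sex and wheel, Smox was 1.69-fold and Amd1 1.49-fold lower in mice labelled HuRm-/- than in controls, and no other member was called (11.8% of all genes called). Smox differed by -0.76 ± 0.13 (adjusted p = 6.93e-05) and Amd1 by -0.58 ± 0.11 (adjusted p = 0.000261). In males Amd1 fell by 0.82 ± 0.20 on locked wheels (adjusted p = 0.0288), the only member called there (1.15% of all genes called). On running wheels Amd1 fell by 0.86 ± 0.20 (adjusted p = 0.0121) and Odc1 by 0.65 ± 0.19 (adjusted p = 0.0472), with 2.63% of all genes called. In females limma called no member on locked wheels (0.384% of all genes called), with Oaz1 and Smox at an unadjusted p under 0.05 and 0 members by edgeR or DESeq2. On running wheels it called none of the 8 (0% of all genes), with Smox at an unadjusted p under 0.05 and again 0 members by edgeR or DESeq2. The locked-wheel call for Amd1 in males was lost in edgeR and DESeq2 and in 8 of the fits that left out 1 mouse, and the call for Odc1 in running males was lost in 39 such fits. The genotype and sex comparisons share mice, so they are not independent of each other.

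Within the labelled groups Smox in both sexes, and Amd1 in males, were lower in the mice with low Myl1. In locked-wheel labelled males Amd1 was 123 to 235 CPM in the 5 mice below the Myl1 gap and 419 to 491 CPM in the 2 above it, against 360.1 to 514 CPM in controls. In running labelled males it was 89.1 to 207 CPM in 4 mice and 291 to 393 CPM in 3, against 350.1 to 509 CPM. Amd1 above the gap thus lay within or near the control range, and below it outside that range. Smox in locked-wheel labelled males was 84.7 to 121 CPM below the gap and 246 to 372 CPM above it, and in running labelled males 97.2 to 113 and 188 to 292 CPM. In labelled females Smox was 17.2 to 24.8 CPM below and 45.1 to 49.6 CPM above it on locked wheels, and 18.7 to 27.7 and 34.5 to 40.0 CPM on running wheels. Smox thus showed the same split in all 4 labelled groups, in sets of 2 to 5 mice. How many of all genes separate at the gap was not counted, so the split is not shown to be particular to these members. For Odc1 the corresponding ranges were 5.52 to 9.17 and 13.7 to 16.3 CPM in locked-wheel males, and they overlapped in running males, at 4.87 to 12.02 and 7.08 to 15.6 CPM. In labelled females the ranges overlapped for both other genes. Amd1 was 26.1 to 37.6 CPM below the gap and 36.1 to 48.4 CPM above it on locked wheels, and 28.1 to 39.4 and 38.8 to 51.6 CPM on running wheels. Female Odc1 below the gap, at 2.46 to 5.33 and 1.64 to 4.92 CPM, enclosed the range above it, at 3.19 to 4.67 and 2.33 to 3.56 CPM.

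Without the 11 labelled mice above the gap, the genotype difference was -1.20 and -1.33 for Amd1 in locked-wheel and running males, -1.15 and -1.17 for Smox, and -0.85 and -0.88 for Odc1, all called (8.76% and 7.63% of all genes). In females Smox was the member called, at -1.36 and -1.17 (4.53% and 5.24% of all genes), and Amd1 differed by -0.62 and -0.44 (adjusted p = 0.0598 and 0.191). These mice were left out after the data were seen and by a measured transcript, so part of the widening follows from how they were chosen. Slow-fibre markers also moved with the genotype labels, with 6 of 6 higher in the average and a median of 0.50. With slow and fast markers as covariates the genotype averages of Smox (-0.31 ± 0.14, adjusted p = 0.337) and Amd1 (-0.19 ± 0.11, adjusted p = 0.522) were no longer called, and Oaz1 was called higher (0.26 ± 0.05, adjusted p = 0.0404). Slow-fibre level and genotype label moved together in these mice, and their parts in the difference cannot be told apart.

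**Figure D4:**
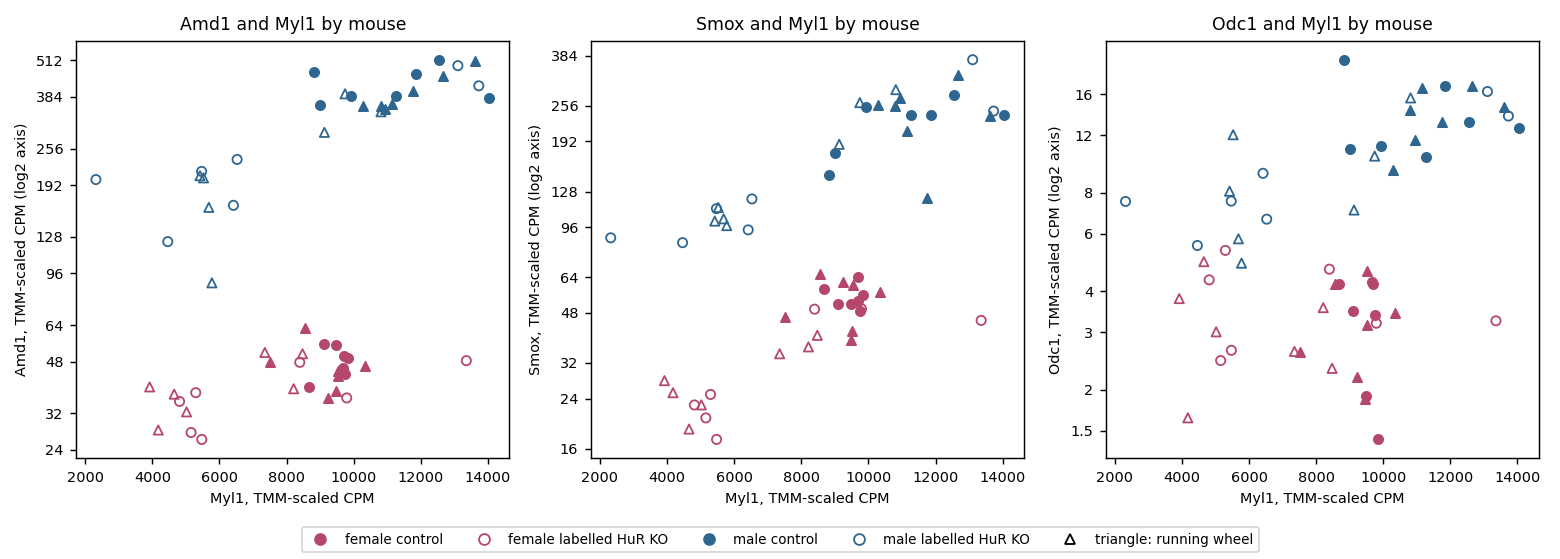
Amd1, Smox and Odc1 (TMM-scaled CPM, log2 axis) against Myl1 (TMM-scaled CPM) in each of 56 mice, coloured by sex, open for mice labelled HuR knockout and triangular for running wheels. Labelled mice were cut into a low and a high Myl1 set at the widest gap in each group. In labelled males the low set holds 89.1 to 235 CPM of Amd1 while the high set holds 291 to 491 CPM.

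Voluntary running moved few members. Limma called no member in male controls (3.24% of all genes called; 0 members at an unadjusted p under 0.05, by edgeR or by DESeq2). In female controls it also called none (8.74% of all genes), with Sms (0.31 ± 0.13) and Srm (-0.31 ± 0.16) at an unadjusted p under 0.05 and 0 by edgeR or DESeq2. None was called in labelled males (0.0419% of all genes; 0 members at an unadjusted p under 0.05, by edgeR or by DESeq2). Oaz1 was the exception in labelled females: it ranged from 63.5 to 91.2 CPM on locked wheels (median 72.6) and from 53.8 to 58.2 CPM on running wheels (median 56.7). The running females all lay below the locked-wheel females, and the share of all genes separated in this way by wheel was not counted. Oaz1 fell by 0.40 ± 0.10 (adjusted p = 0.0186, 3.85% of all genes called), and by 0.16 ± 0.05 in the average over sex and genotype (adjusted p = 0.0490, 5.96% of all genes). Without the 11 labelled mice the differences were -0.37 ± 0.14 and -0.14 ± 0.06, and neither was called (adjusted p = 0.212 and 0.199). Srm was at an unadjusted p under 0.05 in both comparisons and was not called, with differences of -0.41 ± 0.14 (adjusted p = 0.0925) and -0.19 ± 0.08 (adjusted p = 0.121). Amd1, Smox and Odc1 differed by wheel by -0.04, 0.02 and -0.06 in the average, with 95% confidence intervals of -0.27 to 0.18, -0.25 to 0.28 and -0.34 to 0.21.

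Whether the sex difference itself changed with genotype or wheel was tested as an interaction. No member was called by limma, edgeR or DESeq2 for sex by genotype (0.00698% of all genes called by limma), with Amd1 (0.52 ± 0.22, adjusted p = 0.561) and Odc1 (0.68 ± 0.27, adjusted p = 0.521) at an unadjusted p under 0.05. A positive value here means a narrower gap between the sexes in the labelled mice. Without the 11 mice the Amd1 interaction was 0.73 ± 0.17, a larger value with a smaller SE, and was called (adjusted p = 0.0427, 0.258% of all genes). For sex by wheel no member was called by any of the 3 tools (13.7% of all genes by limma), with Srm at an unadjusted p under 0.05, and for genotype by wheel none was called (0.00698% of all genes), with Oaz1 at an unadjusted p under 0.05.

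Across the 56 mice Amd1, Smox and Odc1 rose and fell together. The Pearson r of log2 CPM was 0.95 between Amd1 and Smox, 0.92 between Amd1 and Odc1 and 0.85 between Odc1 and Smox, which includes the difference between the sexes. After group means were subtracted the values were 0.74, 0.54 and 0.34, over mice that share the split in Myl1 described above. Sms went with Oaz1 (0.70, and 0.55 after subtraction), and Sat1 went against Amd1 (-0.67, and -0.15 after subtraction). Of 8456 genes with a mean of at least 5 CPM, the 3 most like Amd1 were Cdk19 (r = 0.97), Ttll7 (0.96) and Rab12 (0.95). Cdk19 lies 37.4 kb from Amd1 on chromosome 10 and, with Ttll7 and Rab12, was also lower in every female than in every male. Those most like Smox were Amd1 (0.95), Cdk19 (0.93) and Serpinb6a (0.93), and those most like Odc1 were Amd1 (0.92), Psmd8 (0.91) and Ttll7 (0.90). With group means subtracted the leading genes were Phka1 for Amd1 (0.79), Asb14 for Smox (0.83) and Naa50 for Odc1 (0.59). The remaining members followed other genes: Sms was most like Pacsin3 (0.85), Oaz1 like Myoz1 (0.80), Sat1 like Ctsl (0.74), Azin1 like Xirp1 (0.71) and Srm like Cnpy3 (0.59).

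Of 27 other listed genes of polyamine and methionine metabolism, 25 were in the table and tested, and Arg2 and Oaz3 were not analysed here. In the average sex comparison 2 were higher and 5 lower in females (33% of all genes called), with a median of -0.04. Apart from Amd2 the lower ones were Adi1, an enzyme of methionine salvage (-0.35 ± 0.06, adjusted p = 1.44e-05), Mat2a, which makes S-adenosylmethionine (-0.25 ± 0.05, adjusted p = 1.49e-05), the polyamine transporter Atp13a3 (-0.22 ± 0.05, adjusted p = 0.000485) and antizyme 2, Oaz2 (-0.17 ± 0.05, adjusted p = 0.00688). The higher ones were Slc3a2, a subunit of amino acid transporters (0.21 ± 0.04, adjusted p = 9.49e-05), and Dohh, which completes hypusine on the translation factor made with spermidine (0.15 ± 0.06, adjusted p = 0.0339). In the 4 pairings the counts were 2 higher and 2 lower, 1 and 1, 0 and 5, and 0 and 1. Agmat and Arg1, called in locked-wheel pairings, moved in the same direction as the liver markers: the log2 fold change of Agmat was 2.42 in controls and -2.51 in labelled mice, while the liver list had medians of 2.56 and -2.31, and the part of liver RNA was not tested. The oestrogen receptor Esr1 was higher in females by 0.16 ± 0.06 in the average (adjusted p = 0.0211).

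**Figure D5:**
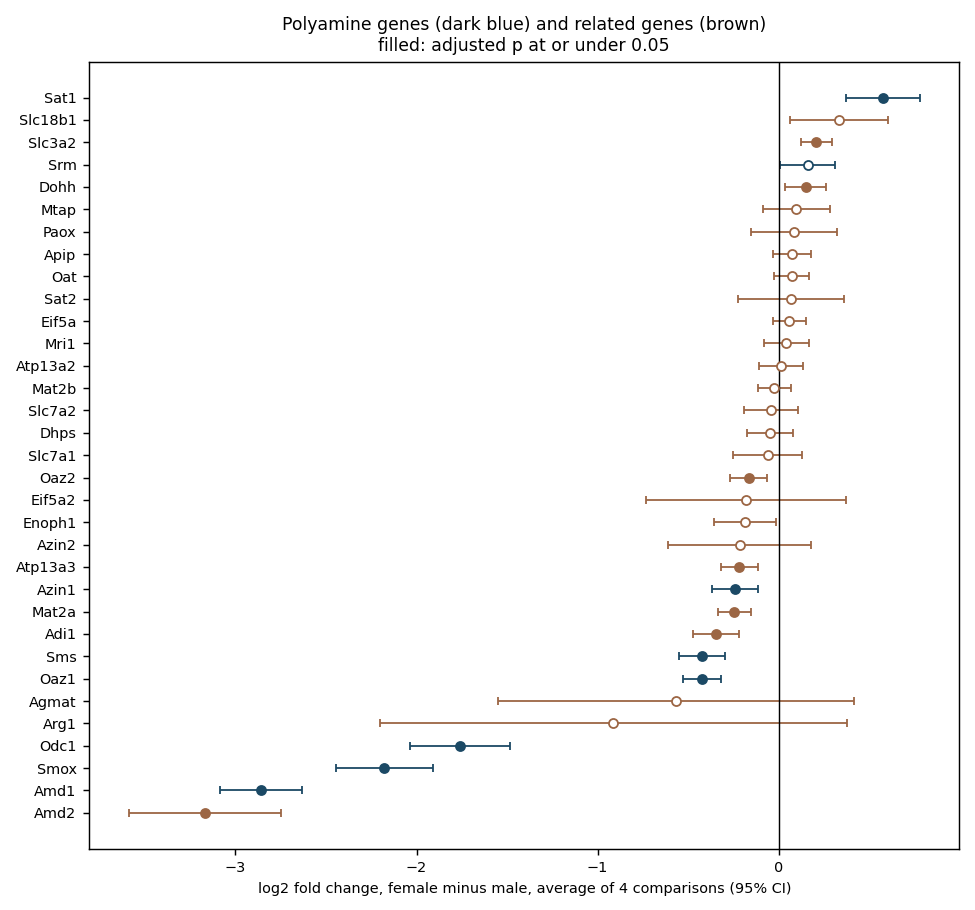
Average female-minus-male log2 fold change with its 95% confidence interval for the 8 members (dark blue) and 25 related genes (brown), filled where the adjusted p was at or under 0.05. Amd2, Amd1, Smox and Odc1 stand well below zero with narrow intervals, and Agmat and Arg1 have wide intervals that include zero.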

How the data were processed

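RNA from the gastrocnemius of 56 mice was sequenced by the study's authors. The labels describe a QuantSeq 3′ library with a 50-base forward read, whereas the study's methods describe stranded total RNA, so strand and read placement are uncertain. The authors deposited raw counts per Ensembl gene, and the submitters' processing notes name GRCm38, mm10, R 4.0.3 and edgeR 3.38.4; the aligner and counter are not given in the sources used here. Totals were 6639782 to 21633091 counts a library, and 15503 of 15539 genes matched a GENCODE M21 symbol.

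Groups came from the labels. Counts were filtered with filterByExpr, TMM-normalized and fitted with voom and limma 3.58.1 (edgeR 4.0.16, R 4.3.3) over all 56 mice with 1 mean per group, and Benjamini-Hochberg adjustment covered all 14321 genes at 0.05. The log2 ratio of Odc1 to Oaz1 was compared by exact permutation. The fit was also tried on simulated counts with changes set in locked-wheel control females. It recovered 67.7% of changes of log2 size 1 and 89.9% of those of log2 size 2, with 4 false calls among 160. Differences of such sizes can therefore go uncalled. Alternatives changed the normalization, filter, test (edgeR quasi-likelihood, DESeq2 1.42.0), covariates and samples. Correlations were taken on log2 CPM (prior count 2), and similar transcripts were found with minimap2 2.31 where at least 30% was covered.

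Members and lists were chosen with earlier results of these data known. Named besides the 8 members were related genes called in the average sex comparison, the 3 genes most like each member, checks of sex and genotype, Esr1, and genes a sentence turns on, chosen after their values were seen. Replicate numbers were not used to pair the mice in the main fits. A listed gene is not reported here.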

Additional observations from a re-analysis of the deposited data

Results flagged for a closer look

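Azin1 in 1 female labelled HuRm-/- on a locked wheel (mouse 31) stood at 42.8 CPM, with the next of the 7 mice at 32.2 CPM. That gap was 0.615 of the group's range, over Dixon's critical value for 7 samples. It was the only such value among 64 groups of 7 examined for the members, and chance alone marks about 1 in 20 groups. The same mouse is one of the 11 above the Myl1 gap.

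For Adi1, an enzyme of methionine salvage, the sex difference changed with the wheel: the interaction was 0.36 ± 0.13 in limma (adjusted p = 0.0479). Adi1 was lower in females on locked wheels by -0.53 in controls and -0.53 in labelled mice, and differed by -0.15 and -0.18 on running wheels. The interaction was called for 13.7% of all genes tested, and it was near the threshold.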

How the results depend on the processing

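The sex differences of Amd1 and Smox kept their direction and their call in all 4 pairings under 17 alternative settings, in the average under 15, and in all 56 fits that left out 1 mouse. Odc1 did the same except in locked-wheel labelled mice, where it kept its direction throughout but its call in only 14 of the 17 settings. The number of members called between the sexes moved as follows, with the cause not tested. In locked-wheel controls 6 became 3 with liver and adipocyte, slow and fast fibre, or leukocyte and erythroid markers as covariates. In locked-wheel labelled HuRm-/- mice 5 became 2 with liver and adipocyte or slow and fast markers, and 3 with leukocyte and erythroid markers, without the 11 labelled mice above the Myl1 gap, or without the mice over 500 CPM of liver markers. In the average 7 became 3 with slow and fast markers. Smaller rises also occurred: 6 became 7 in locked-wheel controls, through Srm, with limma-trend, quality weights or without the 11 mice, and 5 became 6 in locked-wheel labelled mice, through Sat1, with upper-quartile scaling, edgeR, DESeq2, limma-trend or quality weights.

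Genotype calls were less steady. In locked-wheel males 1 became 0 with edgeR, DESeq2, liver and adipocyte or slow and fast markers, or only the 2 groups compared, 2 with sample quality weights and 3 without the 11 mice. In running males 2 became 1 with DESeq2 size factors, upper-quartile scaling, edgeR, DESeq2, limma-trend, at least 1 CPM in 7 mice, liver and adipocyte markers, or without high-liver mice, 4 with quality weights, and 0 with only 2 groups or slow and fast markers. In females 0 became 1 without the 11 mice on either wheel, and on running wheels with only 2 groups. The genotype average went from 2 to 1 with slow and fast markers. Wheel calls went from 0 to 1 in control females with 28 mice or only 2 groups, from 1 to 0 in labelled females without the 11 mice, and from 1 to 0 in the average with no filter, slow and fast markers, without the 11 mice or without high-liver mice. Sex by genotype went from 0 to 1 without the 11 mice.

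Leaving out 1 mouse gave 0 to 3 members for genotype in locked-wheel males, 0 to 3 in running males, 0 to 2 for wheel in labelled females and 0 to 1 in the wheel average. Amd1 in running males lost its call without control mouse 10 (adjusted p = 0.0511) or labelled mouse 22 (0.0622), Sat1 in running controls in 6 fits, Sms in running labelled mice in 8, and Oaz1 by wheel in labelled females without locked-wheel mouse 34 (0.0518) and in the average in 34 fits. The Odc1 to Oaz1 difference kept its call when 1 mouse was left out, at -1.79 to -1.51, -2.01 to -1.78, -1.08 to -0.81 and -1.05 to -0.75 in the 4 pairings. Without the 11 mice it was -0.70 and -0.57 in labelled mice and not called, with 4 or 5 mice a group.

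Signs turned only for small differences that were not called. Srm turned to -0.049 with slow and fast markers in running controls (-0.0071 to 0.086 leaving out 1 mouse, below zero without female mouse 9) and to -0.093 without the 11 mice in locked-wheel labelled mice. In running labelled mice it turned to 0.0042 without the 11 (-0.13 to 3.46e-05 leaving out 1 mouse, above zero without female mouse 10). Azin1 in locked-wheel labelled mice turned to 0.055 with liver and adipocyte markers, 0.10 with leukocyte and erythroid markers and 0.017 without high-liver mice (-0.12 to 0.0022 leaving out 1 mouse, above zero without female mouse 30).

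Some females and males in compared groups shared a replicate number. Over 12 such pairs the correlation of deviations was -0.20 to 0.18, and 3 pairs matched best. These are too few to settle whether a shared number marks a shared order or batch. With the replicate number as a block, members called went from 5 to 2 in locked-wheel labelled mice, from 1 to 0 and 2 to 1 for genotype in locked-wheel and running males, and from 1 to 0 for wheel in labelled females and the average. In that fit Srm turned to -0.064, -0.14 and 0.029 and Azin1 to 0.19.

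Upper-quartile scaling moved the share of higher calls in running controls from 40.3% to 51.1%, with the median over genes moved by 0.03 or less. Genes called ranged from 951 to 3611 in locked-wheel controls and from 62 to 2920 in locked-wheel labelled mice over the settings. Odc1, Sat1 and Srm have few counts in some mice, which limits their precision.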
